A study of Mus musculus with 88 samples.

Results

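Mouse embryonic stem cells (mESCs) that carried a plasmid for the homeobox gene Obox8 were compared with mESCs that carried the matching empty plasmid. The comparison used 3 of the 88 samples of the series, namely 1 library labelled ES_Obox8 and 2 control libraries labelled ES_Empty, and it covered all 55364 genes of the deposited table. The ES_Obox8 library has no replicate, so no test was made and every difference below is a difference between libraries. All 3 libraries came from wild-type male mESCs of a C57BL/6 and 129 hybrid background, kept with serum, LIF, the MEK inhibitor PD0325901 and the GSK3 inhibitor CHIR99021 on gelatin and transfected by lipofection. The ES_Obox3 and ES_Obox5 groups, with 2 libraries each, were the same cells with plasmids for those genes. The labels do not give the promoter of the RNA-seq plasmids, the time of collection or the share of cells that took up the plasmid, and nothing ties the replicates to separate cultures. Total RNA was sequenced from whole-cell lysates with a stranded SMART-seq kit.

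Obox genes form a cluster of homeobox genes, transcription factor genes that are known in the mouse for expression in oocytes and early embryos. Embryonic stem cells normally keep the genes of the 2-cell stage silent and are held in the naive pluripotent state by factors such as Pou5f1, Sox2, Nanog, Klf4 and Esrrb. Expressing an embryonic homeobox gene in these cells is a common way to look for the genes that respond to it.

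Levels are given in TPM, a unit in which the reads of each gene are divided by its length and then set relative to all genes of the same library. Obox8 (ENSMUSG00000099216.1 in the deposited table) stood at 2465 TPM in the ES_Obox8 library and was listed at 0 in both ES_Empty libraries. Among the other 18 mESC libraries its highest level was 1.86 TPM, in an ES_Obox5 library, so the label of the ES_Obox8 library matched the expressed gene. The other Obox genes were nearly silent there: Obox6 was highest among them at 1.07 TPM, Obox7 had 0.38 TPM, Obox2 had 0.12 TPM, Obox5 had 0.10 TPM, and Obox1 and Obox3 were listed at 0. The ES_Obox5 libraries held 971 and 933 TPM of Obox5. The ES_Obox3 libraries held only 1.75 and 1.59 TPM under Obox3 itself but 451 and 263 TPM under the copy Obox3-ps5. Obox genes have near-identical copies and the handling of reads that match several of them is not given in the sources used here, so low Obox values are uncertain.

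The cells were still stem cells by their markers. All 10 ESC markers examined were present in the ES_Obox8 library, among them Sox2 (44.8 TPM with Obox8), Pou5f1 (260 TPM) and Dppa5a (733 TPM). They summed to 1745 TPM with Obox8 and to 2869 and 2469 TPM in ES_Empty, and 9 of the 10 lay below both controls. Of the 10321 genes that reached 5 TPM in any of the 3 libraries, 3319 lay below both controls. Markers of other cell types were low: the fibroblast gene Col1a1 was at 0.06 TPM, the neural gene Pax6 at 0.77 TPM and the cardiac gene Tnnt2 at 0.34 TPM. Of the 10 fibroblast genes only Fn1 and Vim reached 5 TPM, and the list summed to 111 TPM with Obox8 and to 201 and 156 TPM in ES_Empty. Of the 10 neural genes 3 reached 5 TPM (Tubb3, Nes and Nkx6-2), with sums of 44.2 TPM with Obox8 and 57.6 and 48.3 TPM in ES_Empty. The heart and muscle list had 1 such gene of 11, with sums of 13.7 TPM with Obox8 and 9.58 and 12 TPM in ES_Empty. The 3 libraries were of like depth, with 1 read on a 1-kb gene worth 0.205 TPM in ES_Obox8 and 0.269 and 0.205 TPM in ES_Empty, so that 1 TPM on such a gene rested on 3.72 to 4.88 reads. The 10 most abundant genes took 54.5 to 58.8% of the TPM in these libraries.

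To be called higher or lower, a gene needed a level of 5 TPM or more in the ES_Obox8 library or in an ES_Empty library, and had to lie at least 4-fold from each ES_Empty library on the log2(TPM + 1) scale, a log2 difference of at least 2. This scale understates the change of low genes. Of the 10321 genes that reached 5 TPM, 125 were higher with Obox8 (1.21%) and 30 were lower (0.291%). Most of these were predicted genes, pseudogenes and small RNAs: 92 of the 125 and 27 of the 30. Of those 92, 74 were listed at 0 in both ES_Empty libraries, with a median of 7.69 TPM with Obox8, and of those 27, 25 were listed at 0 in the ES_Obox8 library. The 7319 genes with other symbols, called named symbols here, gave 33 higher (0.451%) and 3 lower (0.041%). Against ES_Empty replicate 2 alone the counts over all genes were 181 higher and 110 lower, and against ES_Empty replicate 1 alone 232 and 100.

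The spread between the control libraries differed sharply between these classes. The 2 ES_Empty libraries lay at least 4-fold apart in 246 of the 3002 predicted, pseudogene and small RNA genes (8.19%) but in only 6 of the 7319 named symbols (0.082%). At 2-fold they lay apart in 26 named symbols (0.355%). The same rule applied to each of the 8 other single libraries, all with another homeobox construct, found 3 to 7 named symbols higher (median 4) and at most 1 lower. The values below are therefore given for named symbols. At a 2-fold threshold Obox8 had 174 named symbols higher (2.38%) and 78 lower (1.07%), and over all genes 417 higher (4.04%) and 202 lower (1.96%). The median log2 difference from the ES_Empty mean over all 10321 genes was 0.01. It was -0.08 against ES_Empty replicate 1 and 0.11 against replicate 2, so small general shifts of opposite sign lay behind it.

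**Figure D1:**
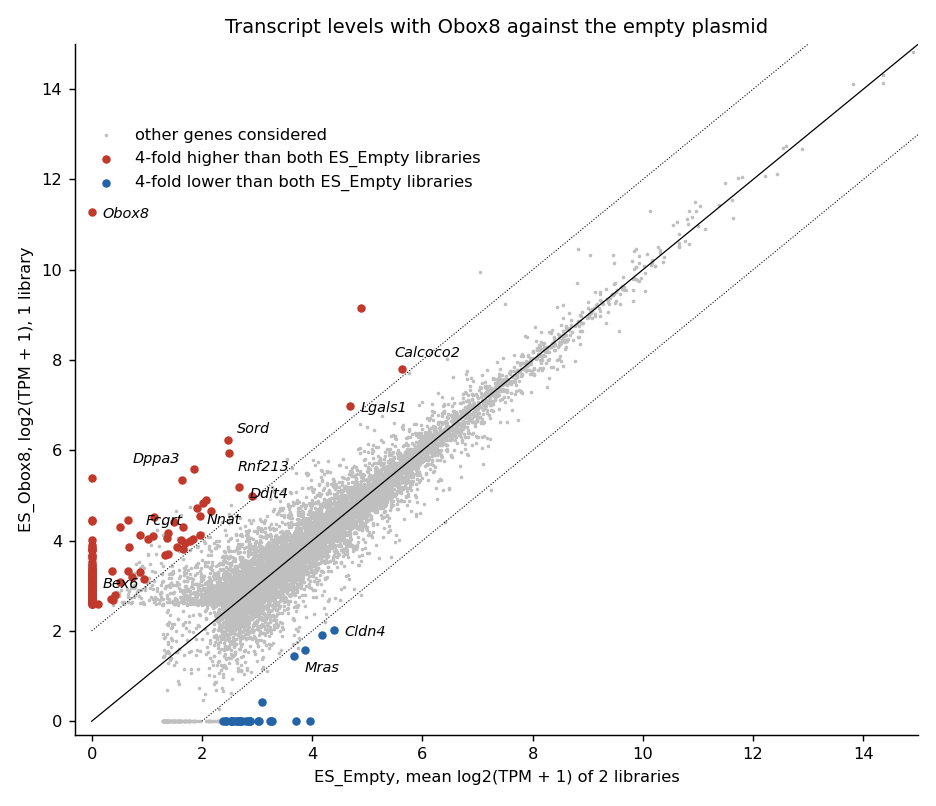
Each point is 1 of the 10321 genes considered, with its mean log2(TPM + 1) in the 2 ES_Empty libraries on the x axis and its log2(TPM + 1) in the ES_Obox8 library on the y axis. The solid line marks equal levels and the dotted lines a 4-fold difference. The 125 red points lie 4-fold above both ES_Empty libraries, many of them at 0 on the x axis, and the 30 blue points lie 4-fold below both, most of them at 0 on the y axis.

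Sord and Rnf213 were among the large increases at a good level of expression. Sord, the sorbitol dehydrogenase that turns sorbitol into fructose (chr2:122234839-122265337 on GRCm38.p6), stood at 5.94 and 3.49 TPM in ES_Empty and at 73.6 TPM with Obox8, a log2 difference of 3.74. Rnf213, a very large E3 ubiquitin ligase (chr11:119389950-119487418), stood at 4.76 and 4.45 TPM in ES_Empty and at 60.4 TPM with Obox8, a log2 difference of 3.45. In both genes the ES_Obox8 value lay far above both controls, which lay within 2-fold of each other.

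These same genes were at like levels with Obox3 and Obox5. Sord had 81.0 and 57.9 TPM with Obox3 and 79.8 and 65.4 TPM with Obox5. Rnf213 had 55.1 and 36.4 TPM with Obox3 and 57.6 and 51 TPM with Obox5, so its ES_Obox8 value was the highest of the 19 mESC libraries, by a small margin. That margin was 0.13 and 0.07 on the log2 scale over the highest ES_Obox3 and ES_Obox5 library. The median named symbol lay higher with Obox8 by more, 0.58 and 0.32, so this rank could depend on scaling. For Sord the ES_Obox8 value lay within the range of both groups.

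Fcgrt, Ddit4 and Fam131c had the same pattern. Fcgrt, the neonatal Fc receptor that recycles immunoglobulin G and albumin, stood at 1.92 and 0.59 TPM in ES_Empty, 16.3 TPM with Obox8, 21.4 and 15.2 TPM with Obox3, and 15.7 and 15.6 TPM with Obox5. Ddit4, an inhibitor of mTORC1 signalling that is induced by stress, stood at 5.51 and 5.26 TPM in ES_Empty, 35.3 TPM with Obox8, 28.2 and 19.9 TPM with Obox3, and 29.8 and 25.7 TPM with Obox5. Fam131c went from 1.12 and 2.72 TPM in ES_Empty to 20.5 TPM with Obox8, beside 23.9 and 14.8 TPM with Obox3 and 19.9 and 20.2 TPM with Obox5. Calcoco2, a receptor of selective autophagy, was the most abundant gene of this kind: 52.9 and 44.4 TPM in ES_Empty, 221 TPM with Obox8, 290 and 155 TPM with Obox3, and 413 and 306 TPM with Obox5. Its ES_Obox8 value lay 4-fold above both controls and below both ES_Obox5 values.

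Dppa3 and Bex6 were higher with Obox8 but much higher with Obox3 and Obox5. Dppa3, also called Stella, a maternal protein that limits DNA methylation through UHRF1 (chr6:122626424-122630271), stood at 3.31 and 2.07 TPM in ES_Empty and at 47.4 TPM with Obox8, a log2 difference of 3.73. With Obox3 it had 260 and 199 TPM and with Obox5 290 and 230 TPM, so the ES_Obox8 library was intermediate, at least 4-fold above both ES_Empty libraries and 4-fold below all ES_Obox3 and ES_Obox5 libraries. Bex6, a member of the Bex family of small proteins (chr16:32179800-32186944), was listed at 0 in both ES_Empty libraries and had 7.44 TPM with Obox8, 31.5 and 19.3 TPM with Obox3, and 49.5 and 46.6 TPM with Obox5. Stac2 lay closer to the other groups: it went from 1.54 and 2.68 TPM to 15.2 TPM with Obox8, and stood at 28.1 and 19.2 TPM with Obox3 and at 23.3 and 24.6 TPM with Obox5.

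Another group was highest in the ES_Obox8 library. Gadd45g, a stress-response gene of the growth arrest and DNA damage family (chr13:51846675-51848475), stood at 0.92 and 0.35 TPM in ES_Empty and at 13.5 TPM with Obox8, a log2 difference of 3.17. It had only 1.40 and 1.97 TPM with Obox3 and 3.19 and 2.52 TPM with Obox5, and 3.19 TPM was the highest value of the other 18 libraries. Nnat, the imprinted gene for neuronatin, a small membrane protein that is made from the paternal allele (chr2:157560078-157562525), stood at 2.64 and 2.92 TPM in ES_Empty and at 25.4 TPM with Obox8, a log2 difference of 2.80. It had 5.89 and 4.45 TPM with Obox3 and 2.87 and 1.94 TPM with Obox5. Its highest value in the other libraries was 10.6 TPM, in an ES_Obox6 library. Caskin1, a scaffold protein that binds the kinase CASK, went from 0.25 and 0.34 TPM to 8.97 TPM with Obox8, beside 4.91 and 2.61 TPM with Obox3 and 5.13 and 4.07 TPM with Obox5.

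Lgals1, Slc25a41, Zscan5b and Hoxb13, chosen here after their values were seen, belonged to the same group. Lgals1, which encodes the sugar-binding protein galectin-1, stood at 27.4 and 22.3 TPM in ES_Empty and at 125 TPM with Obox8, a log2 difference of 2.30. It had 20.2 and 12.3 TPM with Obox3 and 22.8 and 17.0 TPM with Obox5, within or below the range of the controls. Its log2 differences from ES_Empty there, -0.61 and -0.31, were near those of the median named symbol, -0.59 and -0.33. The highest Lgals1 value in the other 18 libraries was 34.5 TPM. Slc25a41, a mitochondrial carrier, went from 0.40 and 0.77 TPM to 9.09 TPM, with 2.46 to 2.63 TPM in the ES_Obox3 and ES_Obox5 libraries. Zscan5b, a zinc finger gene, had 0.95 and 0.41 TPM in ES_Empty and 8.18 TPM with Obox8, and no other library was above 4.96 TPM. Hoxb13, a posterior Hox gene, had 0.61 TPM and 0 in ES_Empty and 5.58 TPM with Obox8, and at most 0.85 TPM elsewhere.

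**Figure D2:**
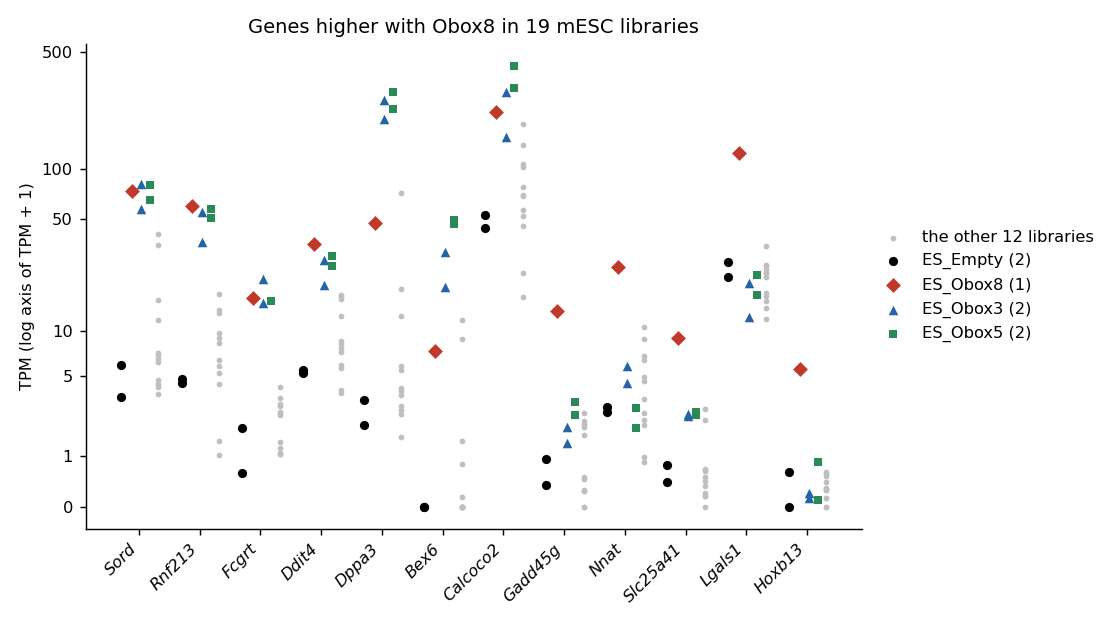
The TPM of 12 genes that were 4-fold higher with Obox8 is shown on a log axis of TPM + 1 in each of the 19 mESC libraries. For Sord, Rnf213, Fcgrt and Ddit4 the red diamond (ES_Obox8) lies near the triangles (ES_Obox3) and squares (ES_Obox5), for Dppa3 and Bex6 below them, and for Gadd45g, Nnat, Slc25a41, Lgals1 and Hoxb13 above every other library.

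Of the 33 named symbols, 4 were immunoglobulin or T cell receptor gene segments (Ighd5-1, Ighd5-4, Ighd3-2 and Traj23), all listed at 0 in both ES_Empty libraries. These segments are 10 to 60 bases long. Ighd5-1 had 41.0 TPM with Obox8, but on its length of 10 bases that is 2 reads, so these values carry little weight. AC102392.1, for which no annotation was found by its symbol, had 7.07 TPM with Obox8, 0 in both controls and up to 6.40 TPM in another library. Without Obox8 itself and the segments, 28 genes remained. On the log2(TPM + 1) scale the ES_Empty libraries lay within 2-fold of each other in all 28 of them, although the TPM of low genes such as Fcgrt, Gadd45g and Efhd1 differed by more. With median-ratio scaling 26 of the 33 passed the 4-fold threshold, without Acsf2, Efhd1, Hoxb13, Pheta1, Pou2f3, Stac2 and Tbc1d9. Of the 28 genes, the ES_Obox8 library was the highest of the 19 mESC libraries in 15. The highest of the other 18 libraries was of ES_Obox3 or ES_Obox5 in 22. These ranks are of TPM as deposited and were not counted with the other scaling.

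Few of the promoters of these genes could be read. RefSeq promoter windows on GRCm38.p6, from 250 bases before to 50 bases after the start of a gene, were at hand for 16 of the 125 higher genes and 3 of the 30 lower genes. The motif TAATCC is bound by homeodomains of the Otx and Crx type, and was searched on both strands. It was found in 1 of the 16 windows (6.25%), that of Efhd1, and in none of the 3. At the 2-fold threshold it was in 12 of 134 windows of higher genes (8.96%) and in 6 of 71 windows of lower genes (8.45%), beside 415 of 6155 windows of all genes considered (6.74%). The shares were near each other. The longer motif TAATCCC was in 0 of the 16 windows. Efhd1, a calcium-binding mitochondrial protein, had 0.13 and 0.53 TPM in ES_Empty and 5.40 TPM with Obox8. The sequences of 120 bases shown here lie upstream of the start of 3 genes with large increases and around the match of Efhd1, 5′ to 3′ on the plus strand, and the capitals mark the motif, which here lies on the minus strand. G and C make up 73.3% of the Sord sequence, 69.2% of that of Gadd45g and 40% of that of Bex6. The match of Efhd1 begins 187 bases before the start of the gene.
Sord (chr2:122234719-122234838): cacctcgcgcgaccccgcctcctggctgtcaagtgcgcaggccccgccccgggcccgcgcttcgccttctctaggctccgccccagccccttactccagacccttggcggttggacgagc
Gadd45g (chr13:51846555-51846674): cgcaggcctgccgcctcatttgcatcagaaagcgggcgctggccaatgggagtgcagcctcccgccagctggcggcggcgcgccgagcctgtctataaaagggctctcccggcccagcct
Bex6 (chr16:32179680-32179799): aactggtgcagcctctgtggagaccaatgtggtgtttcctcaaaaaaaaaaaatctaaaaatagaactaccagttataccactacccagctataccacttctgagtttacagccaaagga
Efhd1 (chr1:87264126-87264245): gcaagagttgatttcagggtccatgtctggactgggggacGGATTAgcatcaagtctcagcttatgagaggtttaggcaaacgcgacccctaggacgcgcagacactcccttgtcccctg

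Decreases were fewer and smaller. Cldn4, a tight junction claudin (chr5:134945123-134946934), stood at 24.7 and 16.3 TPM in ES_Empty and at 3.05 TPM with Obox8, a log2 difference of -2.38. It was lower still with Obox3 (2.32 and 0.82 TPM) and Obox5 (1.42 and 1.52 TPM). Mras, a small GTPase related to Ras (chr9:99385420-99437700), stood at 13.3 and 10.3 TPM in ES_Empty and at 1.72 TPM with Obox8, beside 0.82 and 0.48 TPM with Obox3 and 1.41 and 1.77 TPM with Obox5. The other named symbol past 4-fold, AF357341, is a small nucleolar RNA on chromosome 12 and had 17.9 and 16.4 TPM in ES_Empty and 2.73 TPM with Obox8, which on its length of 75 bases is 1 read. For Cldn4 and Mras the ES_Obox8 value lay well below both controls.

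Among the 78 named symbols at least 2-fold lower were several genes of signalling pathways, named here after their values were seen. Spry4, a feedback inhibitor of FGF and ERK signalling, stood at 19.4 and 16.6 TPM in ES_Empty and at 4.18 TPM with Obox8. Smad7, an inhibitor of TGF-beta signalling, stood at 46.3 and 47.0 TPM in ES_Empty and at 15.1 TPM with Obox8. Bmp4, a secreted signal of the TGF-beta superfamily, went from 9.74 and 10.5 TPM to 3.10 TPM. Trh, the precursor of thyrotropin-releasing hormone, went from 180 and 127 TPM to 33.6 TPM. All 4 were also low with Obox3 and Obox5: Spry4 at 0.83 to 2.06 TPM, Smad7 at 7.05 to 14.1 TPM, Bmp4 at 0.36 to 2.55 TPM and Trh at 25.1 to 43.1 TPM. Mcf2, a guanine nucleotide exchange factor, was low with Obox8 alone among these groups, at 5.51 TPM beside 19.9 and 17.5 TPM in ES_Empty and 16 to 22.9 TPM with Obox3 and Obox5.

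Most genes of the naive pluripotency list were lower with Obox8 than in both controls, by less than 4-fold. None of its 30 genes, all of which reached 5 TPM, lay 4-fold from both controls. At 2-fold 0 were higher and 5 were lower (Klf4, Nr0b1, Spp1, Tcl1 and Utf1), beside 1.96% of all genes lower. The ES_Obox8 value lay below both ES_Empty libraries in 22 genes, above both in 7 and between them in 1. Of all 10321 genes considered, 3319 lay below both, 3779 above both and 3223 within their range. The median log2 difference of the list was -0.62, beside 0.01 for all genes considered. It was -0.50 against ES_Empty replicate 2 and -0.76 against replicate 1.

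Single genes of the network differed in how far they moved. Klf4, a reprogramming factor, stood at 86.7 and 78.4 TPM in ES_Empty and at 33.6 TPM with Obox8. Nr0b1, an orphan nuclear receptor also called Dax1, stood at 86.1 and 90.0 TPM in ES_Empty and at 34.8 TPM with Obox8. Nanog went from 188 and 153 TPM to 98.5 TPM, and Sox2 from 78.5 and 66.3 TPM to 44.8 TPM. The ES_Obox8 values of all 4 lay below both controls. Pou5f1, the gene for OCT4, went from 383 and 333 TPM to 260 TPM, and Fgf4 from 72.3 and 65.8 TPM to 61.2 TPM, which are small differences. Sox2 was far lower with Obox3 (14.5 and 9.83 TPM) and Obox5 (14.2 and 13.1 TPM) than with Obox8. Nanog was not: it had 105 and 72.0 TPM with Obox3 and 88.7 and 82.1 TPM with Obox5.

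Dppa2, Dppa4 and Fbxo15 were among the 7 genes above both controls. Dppa2, a partner of Dppa4 in activating early embryonic genes, had 41.6 and 32.7 TPM in ES_Empty, 74.3 TPM with Obox8 and 110 to 167 TPM in the ES_Obox3 and ES_Obox5 libraries. Dppa4 had 38.8 and 37.7 TPM in ES_Empty, 42.6 TPM with Obox8 and 59.2 to 78.4 TPM in those libraries. Fbxo15, an F-box gene of mESCs, had 30.5 and 26 TPM in ES_Empty, 44.4 TPM with Obox8, 242 and 179 TPM with Obox3, and 258 and 234 TPM with Obox5. None of the 3 reached 2-fold with Obox8. Over the whole list the median log2 difference from ES_Empty was -1.20 with Obox3 and -0.88 with Obox5, against medians of -0.61 and -0.33 for the same 10321 genes. These comparisons share the control libraries with that of Obox8.

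**Figure D3:**
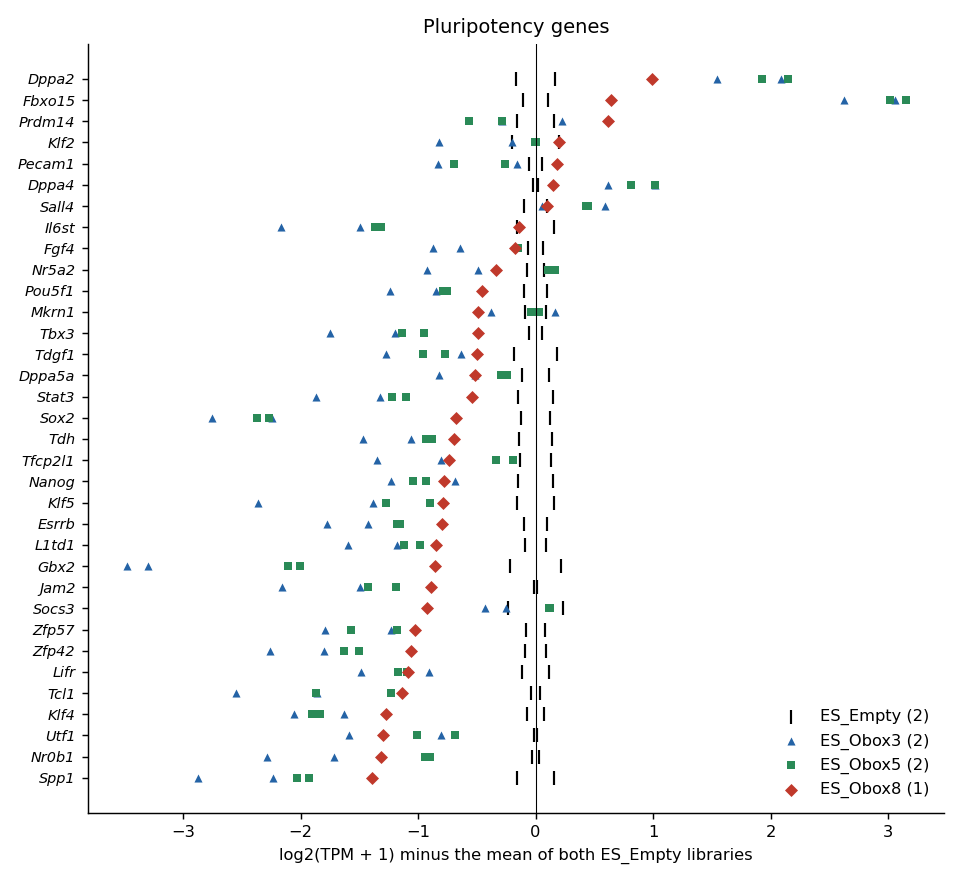
The 34 genes of the naive pluripotency and ESC marker lists are ordered by their difference with Obox8. Each mark is 1 library, given as log2(TPM + 1) minus the mean of both ES_Empty libraries. The ES_Obox8 diamonds of most genes lie left of both ES_Empty ticks, within 2-fold for most, and for Sox2, Gbx2 and Zfp42 less far left than the ES_Obox3 and ES_Obox5 marks.

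The genes of the 2-cell stage stayed near silence. Of the 39 such genes in the table only Zfp534 reached 5 TPM, at 59.4 TPM with Obox8 beside 78.3 and 72.6 TPM in ES_Empty, and 0 of 39 were called. Zscan4c was listed at 0 with Obox8 and had 1.59 and 0.09 TPM in ES_Empty. Zscan4d had 0.05 TPM with Obox8, beside 0.06 and 0.05 TPM in ES_Empty. Tcstv3 was listed at 0 in all 3 libraries, and Zfp352 had 0.09 TPM. The same table holds up to 555 TPM of Zscan4c and 220 TPM of Tcstv3 in other libraries, so these genes can be read in it.

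Trim43a, Guca1a, Klf17 and Pramel7 were high with Obox3 and Obox5 and showed only traces with Obox8. Trim43a, a gene of the Trim43 family that is transcribed in early embryos, had 0.14 TPM and 0 in ES_Empty, 1.81 TPM with Obox8, 104 and 70.0 TPM with Obox3, and 90.4 and 76.9 TPM with Obox5. Guca1a, a guanylate cyclase activator known from photoreceptors, had 0.31 and 0.12 TPM in ES_Empty, 1.41 TPM with Obox8, 90.7 and 67.7 TPM with Obox3, and 85.5 and 70.4 TPM with Obox5. Klf17, a Krüppel-like factor of the early embryo, had 0.22 TPM and 0 in ES_Empty, 2.05 TPM with Obox8, 57.7 and 39.4 TPM with Obox3, and 37.9 and 29.7 TPM with Obox5. Pramel7 had 0.13 and 0.10 TPM in ES_Empty, 2.69 TPM with Obox8 and 22.4 to 38.6 TPM with Obox3 and Obox5. The ES_Obox8 values of these 4 genes lay above both controls, but at a level of about 1 to 3 TPM they did not reach the 5 TPM needed to be considered. The control values, at most 0.31 TPM, rest on fewer reads than the ES_Obox8 values. Crxos, a homeobox gene of the same chromosome 7 cluster, had 0.90 TPM with Obox8, between the 0.36 and 0.96 TPM of ES_Empty, and 18.4 to 34.1 TPM with Obox3 and Obox5.

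A direct comparison with the Obox3 and Obox5 libraries needs no control library. Of 7091 named symbols considered, 69 were at least 4-fold higher with Obox8 than in both ES_Obox3 libraries (0.973%) and 57 were lower (0.804%). Against both ES_Obox5 libraries, 23 of 7078 were higher (0.325%) and 66 were lower (0.932%). These splits depend on scaling, because the median gene lay higher with Obox8 by 0.58 against Obox3 and by 0.32 against Obox5 on the log2 scale. With median-ratio scaling, which leaves a shift of -0.14 and -0.09, the counts were 18 higher and 129 lower against Obox3, and 12 higher and 94 lower against Obox5. The share of calls that were higher went from 54.8 to 12.2% against Obox3 and from 25.8 to 11.3% against Obox5.

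There were 43 named symbols at least 4-fold lower with Obox8 than in all 4 libraries of ES_Obox3 and ES_Obox5. With median-ratio scaling there were 78, among them all 43. That scaling lowers the Obox8 values against both groups, so the 43 could hardly drop out and their staying is no check. Only 6 of the 43 reached 5 TPM with Obox8 or in ES_Empty: Cwc22, Dppa3, Pla2g15, Rimklb, Slc5a6 and Sycp3. Chit1 (chitinase 1), Naalad2, Alppl2, Pemt and Abhd6 were among the other 37. Pemt, which makes phosphatidylcholine from phosphatidylethanolamine, had 0.89 and 0.39 TPM in ES_Empty, 2.73 TPM with Obox8 and 56.4 to 88.5 TPM with Obox3 and Obox5. Sycp3, a protein of the synaptonemal complex of meiosis, had 6.8 and 4.30 TPM in ES_Empty, 9.90 TPM with Obox8 and 44.0 to 86.4 TPM with Obox3 and Obox5. Slc5a6, the transporter of biotin and pantothenate, had 4.74 and 4.57 TPM in ES_Empty, 12.7 TPM with Obox8 and 59.0 to 85.8 TPM with Obox3 and Obox5. With no minimum level, 6 of the 43 lay at least 2-fold above both ES_Empty libraries with Obox8 (Aqp9, Dppa3, Klf17, Pramel7, Slc5a6 and Trim43a). By this rule, with 1 TPM added to every value, only Dppa3 lay at least 4-fold above both. Without the added 1 TPM, the ratios to the ES_Empty mean were 24.7 for Aqp9, 18.3 for Klf17, 24.2 for Pramel7 and 26.7 for Trim43a. They were 17.6 for Dppa3 and 2.72 for Slc5a6. The ES_Empty means of Aqp9, Klf17, Pramel7 and Trim43a were only 0.07 to 0.11 TPM, so their ratios are uncertain.

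In the other direction, 8 named symbols lay 2-fold above both ES_Empty libraries and 4-fold above all 4 libraries of ES_Obox3 and ES_Obox5: Obox8, Lgals1, Atp1b2, Ankrd6, Ifi30, Rlim, Ighd5-4 and Ighd3-2. With median-ratio scaling 5 of the 8 remained, without Ankrd6, Ifi30 and Rlim. These were Obox8 itself, Lgals1, Atp1b2 and the immunoglobulin segments Ighd5-4 and Ighd3-2, whose values are 1 read each. Atp1b2, a beta subunit of the sodium pump, had 3.09 and 3.67 TPM in ES_Empty, 13.7 TPM with Obox8 and 0.65 to 1.77 TPM with Obox3 and Obox5. Ifi30, a lysosomal thiol reductase, had 11.1 and 9.51 TPM in ES_Empty, 34.3 TPM with Obox8 and 3.11 to 7.5 TPM with Obox3 and Obox5. Rlim, an X-linked E3 ubiquitin ligase that targets Rex1, had 25.1 and 20.4 TPM in ES_Empty, 55.4 TPM with Obox8 and 8.64 to 12.4 TPM with Obox3 and Obox5. In each of these genes the ES_Obox8 library was the highest of the 19, and the ES_Obox3 and ES_Obox5 libraries lay below the controls. The median named symbol also lay below the controls in those groups, with log2 differences of -0.59 with Obox3 and -0.33 with Obox5.

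Counted against ES_Empty at 4-fold, 91 named symbols were higher with Obox3 (1.25% of those considered) and 116 with Obox5 (1.6%), beside the 33 with Obox8. At the same threshold 94 were lower with Obox3 (1.29%) and 27 with Obox5 (0.371%), beside the 3 with Obox8. These counts depend on scaling, since the median log2 difference of named symbols from ES_Empty was -0.59 with Obox3 and -0.33 with Obox5, beside 0.01 with Obox8. With median-ratio scaling they were 219 higher and 33 lower with Obox3, 155 and 10 with Obox5, and 26 and 4 with Obox8. These comparisons share the same 2 control libraries. In the direct comparison of the 33 genes, 9 were 4-fold higher with Obox8 than with Obox3, 1 was lower and 23 lay within the threshold. Against Obox5, 6 were higher, 2 were lower and 25 lay within it.

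**Figure D4:**
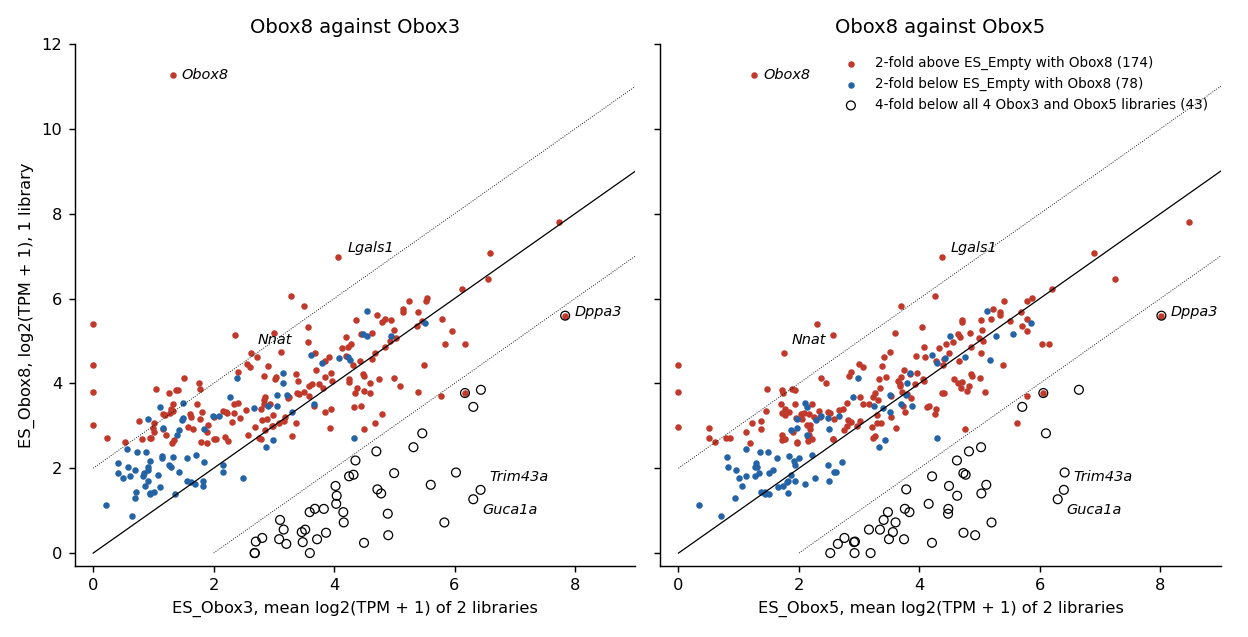
The level with Obox8, as log2(TPM + 1), is plotted against the mean of the 2 ES_Obox3 libraries (left) or the 2 ES_Obox5 libraries (right) for the 174 named symbols 2-fold above ES_Empty with Obox8 (red), the 78 below (blue) and the 43 that lay 4-fold below all 4 libraries (open circles). Most red and blue points lie within the dotted lines of a 4-fold difference, Lgals1 and Nnat lie above the solid line of equal levels, and Trim43a and Guca1a lie near the bottom at a high x value.

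Lineage genes were low with a few exceptions. Hand1, a trophoblast and mesoderm factor, was listed at 0 in both ES_Empty libraries and had 4.11 TPM with Obox8, the highest of the 19 libraries, beside 3.87 and 2.65 TPM with Obox3 and 1.87 and 1.98 TPM with Obox5. Gata4, a primitive endoderm factor, had 0.34 and 0.53 TPM in ES_Empty, 4.20 TPM with Obox8, 25.0 and 14.7 TPM with Obox3, and 20.3 and 19 TPM with Obox5. Gata6 had 0.79 TPM with Obox8 beside 0 and 0.22 TPM in ES_Empty, Sox17 had 0.04 TPM and Cdx2 had 0.45 TPM. Eomes, a factor of trophoblast and mesendoderm, went from 7.98 and 7.92 TPM to 3.78 TPM. Krt18, a keratin of simple epithelia, had 5.05 and 3.14 TPM in ES_Empty and 7.99 TPM with Obox8, far below the 31.4 to 37.7 TPM of ES_Obox3 and ES_Obox5.

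Of the 16 trophoblast genes 5 reached 5 TPM, and 1 of these, Tfap2c, was 2-fold higher, at 21.0 TPM beside 6.57 and 5.97 TPM in ES_Empty. It had 4.06 to 7.24 TPM with Obox3 and Obox5, so the ES_Obox8 value lay above all of them. Of the 18 primitive endoderm genes 5 reached 5 TPM, 0 were higher and 1, Lama1, was 2-fold lower. Of 11 FGF and ERK genes considered, 1 was 2-fold lower (Spry4), 9 lay below both controls and the median log2 difference was -0.42, or -0.20 over 16 genes with no minimum level. Over all 10321 genes considered, 3319 lay below both controls. The formative and germ layer genes had a median of -0.49 over 6 genes, or -0.12 over 16 with no minimum level. Dnmt3b stood out from the rest with 36.2 and 30.9 TPM in ES_Empty and 62.4 TPM with Obox8. Beside it, the de novo methyltransferase gene Dnmt3a had 6.42 and 4.17 TPM in ES_Empty and 13.4 TPM with Obox8, and Tet2, which oxidises methylated DNA, went from 31.2 and 27.3 TPM to 15.4 TPM.

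Most of the germline genes considered lay above the controls. Of 18 genes in the list 8 reached 5 TPM, 7 of these lay above both controls, and the median log2 difference was 0.64, or 0.33 over all 18 genes with no minimum level. Over all 10321 genes considered, 3779 lay above both controls. Only Stra8, which is needed for entry into meiosis, was 2-fold higher, at 8.76 TPM beside 3.58 and 3.30 TPM in ES_Empty and 1.05 to 4.41 TPM with Obox3 and Obox5. Tex19.1, a gene of germ cells and pluripotent cells, had 50.4 and 57.4 TPM in ES_Empty and 77.5 TPM with Obox8, the highest of the 19 libraries. Genes that reached 5 TPM only with Obox8 had to lie above the controls, so this count is a description of the genes considered.

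The remaining lists held few calls, but several of them are short. Over all named symbols 2.38% were 2-fold higher and 1.07% were lower. Larger shares were called in several lists. The stress list had 2 of 9 genes considered higher and 2 lower, and the interferon list 1 of 3 higher and 1 lower. The oocyte list and the epithelial and mesenchymal list each had 1 of 4 higher and 1 lower. The Hes and Id list had 1 of 4 higher, and the neural list 1 of 3 lower (Nkx6-2). The p53 list had 2 of 18 higher and the imprinted list 2 of 16. In the stress list Gadd45g was 4-fold higher, Hspa1b was 2-fold higher, and Gadd45a and Myc were 2-fold lower, with a median of -0.15 over 9 genes, which turned to 0.26 over 17 genes with no minimum level. Of 18 p53 target genes considered, Ddit4 was 4-fold and Gdf15 2-fold higher, and the median was 0.19. Of 16 imprinted genes considered, Nnat was 4-fold and Peg10 2-fold higher, and the median was -0.04. Of the oocyte genes considered, Dppa3 was higher and Ooep, a member of the subcortical maternal complex, was lower at 4.70 TPM beside 18.7 and 16.5 TPM. The interferon list had Stat2 2-fold higher and Ddx58 2-fold lower, the Hes and Id list had Id2 2-fold higher, and the epithelial and mesenchymal list had Snai1 2-fold higher and Cldn4 lower. In the glycolysis list Hk2, a hexokinase, was 2-fold lower and the median was -0.28 over 13 genes. The cholesterol synthesis list had 0 calls and a median of -0.34 over 12 genes. The 31 proteasome subunits had a median of -0.03 and the 85 ribosomal proteins a median within 0.01 of 0, and neither had a call at either threshold.

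**Figure D5:**
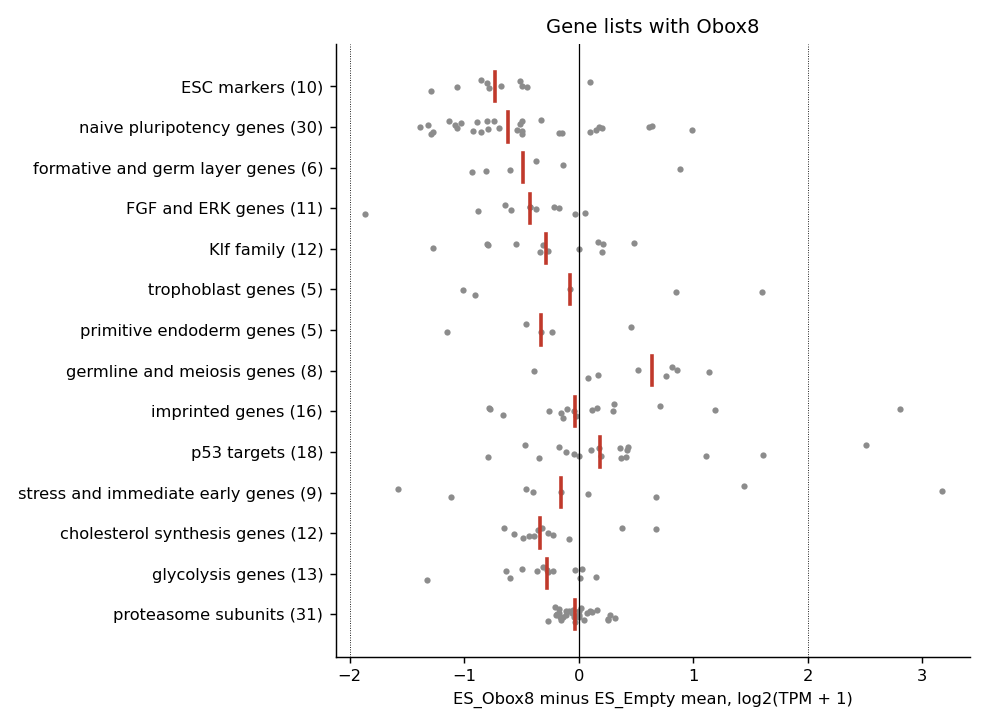
Each grey point is 1 gene that reached 5 TPM, placed by its ES_Obox8 value minus the ES_Empty mean on the log2(TPM + 1) scale, and each red bar is the median of its list, with the number of genes in brackets. The ESC marker and naive pluripotency bars lie left of 0 at -0.73 and -0.62, the germline bar lies right of 0 at 0.64, and the proteasome bar lies at -0.03. The points at the right edge of the imprinted, p53 and stress lists are Nnat, Ddit4 and Gadd45g.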

How the data were processed

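Total RNA of 19 mESC libraries was read from 1 deposited table. The unit of the deposited values is TPM, as the column names say, and each column summed to 1000000 as the authors deposited it. The build mm10 and the tools Trim Galore, Bowtie2, HISAT2, MACS2, deepTools, bedtools and featureCounts 1.6.5 are listed in the submitters' processing notes, with no roles. Not given in the sources used here: the annotation, the strand setting and how multiply matching reads were counted. Overlapping genes and near-identical copies are therefore uncertain. Groups came from the labels. The ES_Obox3 and ES_Obox5 columns numbered 3 carry no matching label and were used as unnumbered libraries of their group. The embryo table was not used here.

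Fold rules were applied in Python 3.11.15 with pandas 2.3.3 on log2(TPM + 1), with a minimum of 5 TPM in at least 1 library compared, and were tested on simulated data. No p-value was computed. Depth was estimated from the value of 1 read on 3176 short genes, and 55.7 to 63.3% of their values in the 3 main libraries were whole reads within a relative tolerance of 0.001. Named symbols leave out symbols with Gm or LOC and digits, Rik, -ps, Mir, Snor, Scarna, Rn or Rnu and digits, n-R, mt- and bare identifiers. The text names the Obox genes, the 15 largest increases and decreases past 4-fold among named symbols, up to 4 such members of each of 28 lists, and a fixed set of marker genes. Some of these genes are not reported here. Other genes were picked after their values were seen. The members and lists were chosen with earlier results of these data known. Of the identifiers 54312 were in the table of gene names, and coordinates of 48 of the 50 genes named by rule are from RefSeq, GRCm38.p6. Alternatives were other pseudocounts, minimum levels, folds and a median-ratio scaling, a longer motif, and each replicate left out in turn.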

Additional observations from a re-analysis of the deposited data

How the results depend on the processing

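Having 1 ES_Obox8 library limits every count, and at 1 TPM a gene of 1 kb rests on 3.72 to 4.88 reads. The counts of genes past the threshold depended on the settings, given here as higher and lower over all genes unless stated. Under a pseudocount of 0.5 TPM, Obox8 against ES_Empty gave 141 and 61 (5 lower named symbols), and the lower counts were 258 for Obox3 and 108 for Obox5 against ES_Empty. Under a pseudocount of 2 TPM the same comparisons gave 80 and 4 (named symbols 21 and 0), 105 and 71, and 131 and 21, and Obox8 gave 154 and 78 against Obox3 and 102 and 96 against Obox5. Without a minimum, 237 genes were higher than ES_Empty and 258 than Obox5 with Obox8. With a minimum of 10 TPM, Obox8 gave 50 and 10 against ES_Empty, 136 higher than Obox3, and 82 and 114 against Obox5, and the lower counts were 107 for Obox3 and 34 for Obox5. With median-ratio scaling, Obox8 gave 82 and 24 against ES_Empty, 114 and 288 against Obox3, and 89 and 229 against Obox5, while Obox3 gave 362 and 69 and Obox5 275 and 30 against ES_Empty. A 2-fold threshold gave 417 and 202 (named symbols 174 and 78) for Obox8, 450 and 1061 for Obox3 and 523 and 578 for Obox5 against ES_Empty, and 1293 and 354 against Obox3 and 727 and 411 against Obox5 for Obox8. An 8-fold threshold gave 47 and 4 (named symbols 10 and 0), 63 and 20, 72 and 5, 83 and 47, and 60 and 51 in the same order. With 1 ES_Empty library left out, Obox8 gave 181 to 232 higher and 100 to 110 lower (named symbols 39 higher and 6 to 8 lower). With any 1 library left out, Obox3 gave 161 to 381 and 221 to 417 and Obox5 253 to 341 and 121 to 143 against ES_Empty. Obox8 gave 335 to 577 and 143 to 322 against Obox3 and 231 to 282 and 210 to 316 against Obox5. The motif share was 0 with TAATCCC. The cause of these changes was not tested. The median of the naive list stayed negative under all 7 alternatives, from -0.76 to -0.50. The sign was the same under those 7 for the 19 genes past 4-fold that were named by rule. The other named symbols past 4-fold were not examined one by one under these settings. Those 19 were chosen for lying 4-fold from both controls, so these settings could hardly turn their sign. No paired analysis was possible because only 1 library carries Obox8 and no test was made.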

Other observations

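Ctsl, Glb1, Gaa, Cd63 and Map1lc3b were among the 174 named symbols 2-fold higher with Obox8. They were picked after their values were seen, and no list of genes of their kind was counted. Ctsl, the lysosomal protease cathepsin L, had 16.4 and 11.6 TPM in ES_Empty and 44.3 TPM with Obox8. Glb1, the lysosomal beta-galactosidase, had 7.28 and 9.82 TPM in ES_Empty and 29.3 TPM with Obox8, the highest of the 19 libraries. Gaa, the acid alpha-glucosidase, had 13.8 and 14.5 TPM in ES_Empty and 34.9 TPM with Obox8, also the highest. Cd63, a tetraspanin of late endosomes, had 17.8 and 13.7 TPM in ES_Empty and 50.4 TPM with Obox8. Map1lc3b, which coats autophagosomes, had 11.1 and 8.35 TPM in ES_Empty and 28.2 TPM with Obox8. In the ES_Obox3 and ES_Obox5 libraries Glb1, Gaa and Cd63 had 15.3 to 22.5 TPM, 16.5 to 26 TPM and 27.0 to 43.1 TPM. Ctsl had 26.3 to 33.4 TPM there, below its ES_Obox8 value, and Map1lc3b had 23.6 to 32.4 TPM, a range that held its ES_Obox8 value.

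Several regulatory genes were 2-fold higher with Obox8, and these too were picked after their values were seen. Id2, an inhibitor of bHLH factors, had 0.88 and 2.19 TPM in ES_Empty, 7.65 TPM with Obox8 and 0.67 to 1.62 TPM with Obox3 and Obox5. Cebpb, a factor of inflammation and fat cell formation, had 1.79 and 1.5 TPM in ES_Empty, 5.52 TPM with Obox8 and 0.32 to 1.79 TPM with Obox3 and Obox5. Hmgb3, a chromatin protein, had 9.20 and 8.13 TPM in ES_Empty, 35.5 TPM with Obox8 and 5.22 to 11.7 TPM with Obox3 and Obox5. Castor1, the arginine sensor upstream of mTORC1, had 10.9 and 11.9 TPM in ES_Empty, 47.9 TPM with Obox8 and 19.2 to 40.8 TPM with Obox3 and Obox5. The ES_Obox8 library was the highest of the 19 in all 4 genes.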
